A study of Mus musculus with 31 samples.

Results

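The genes of the cGAS-STING pathway and of cytosolic DNA clearance described here are Cgas, Tmem173 (the gene of STING), Tbk1, Ikbke, Trex1, Samhd1, Enpp1 and Ifnb1. They were chosen by name and matched by Ensembl identifier, and all 8 were found among the 54532 genes counted in primary microglia and the 48795 counted in hippocampus. After a filter on low counts, 7 of the 8 were tested in microglia among 13675 genes and 6 of the 8 in hippocampus among 16453 genes. Trex1 had 0 counts in every library and passed neither filter, and Ifnb1 passed the filter in microglia only through the one group where it was high and did not pass it in hippocampus. Ifnb1 is therefore left out of every count and median of tested genes, which cover the 6 others. Its values in microglia are given as a description, without a test.

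RNA was sequenced from the hippocampi of P301S mice, which carry a transgene for human tau bearing the P301S mutation, and of non-transgenic animals (Ntg) at 8 to 9 months of age by the labels. There were 7 Ntg mice (3 females, 4 males) and 6 P301S mice (3 females, 3 males), with 1 library each, and the Cgas genotype of these mice was not stated for this experiment. Primary microglia were grown from brains of pups 1 to 3 days old, from Cgas+/+ (wild-type) or Cgas-/- (cGAS knockout) mice, and received vehicle, tau fibrils at 2 μg/ml or herring testis DNA (HT-DNA) at 1 μg/ml for 6 h, with 3 libraries per group, which the study describes as biologically independent. The cultures had been grown with a factor that promotes proliferation of microglia, and how HT-DNA was delivered to these cultures was not stated.

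cGAS binds double-stranded DNA in the cytosol and makes the cyclic dinucleotide cGAMP, which binds STING on the endoplasmic reticulum. STING then recruits the kinases TBK1 and IKKε (the product of Ikbke), which phosphorylate transcription factors that switch on Ifnb1, the gene of interferon-β. TREX1 degrades cytosolic DNA, SAMHD1 hydrolyses deoxynucleotides and limits the release of DNA at stalled replication forks, and ENPP1 hydrolyses cGAMP outside cells. In the brain, microglia are a main cell type in which this pathway is active.

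On GRCm38, with GENCODE M21 annotation, the 8 protein-coding genes all lie on the minus strand. Cgas spans chr9:78430526-78443237 and Tbk1 spans chr10:121546455-121586787. Ikbke spans chr1:131254343-131279606, Trex1 spans chr9:109057933-109059734 and Samhd1 spans chr2:157097533-157135265. Enpp1 spans chr10:24637914-24712159 and Ifnb1 spans chr4:88522025-88522774, a short gene of 750 exon bases. Small parts of the exons of Cgas (201 of 4126 bases, shared with the pseudogene Gm8093 on the opposite strand) and of Ikbke (159 and 65 of 9018 bases, shared with the antisense genes Gm28914 and Gm28913) overlap other genes, whose own counts did not exceed 35 in any library.

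The 250 bases before the RefSeq start site (GRCm38.p6) were searched on both strands for the interferon-stimulated response element (GAAA, any 2 bases, GAAA), the gamma-activated site (TTCNNNGAA) and the NF-kB site (GGGA, any 2 bases, TTCC). Of the 8 genes, 7 were looked up, and the windows of 2 of them held a match. AANNGAAA, the core bound by interferon regulatory factors, was added after the values and sequences had been seen. It lies inside every interferon-stimulated response element as written here. Among 32851 such windows of all genes, 3% held the interferon-stimulated response element, 7% the gamma-activated site, 1.2% the NF-kB site and 21.3% AANNGAAA. The window of Ikbke held a match to AANNGAAA alone, so its place here depends on the motif added afterwards. A link between matches and responses was not tested. The windows of Ifnb1, Samhd1 and Ikbke are the only ones of the 7 genes that held any of the 4 motifs. They are shown with matches in capitals, on the minus strand and without bases that GENCODE places inside the gene, at chr4:88522795-88523044 for Ifnb1, chr2:157135266-157135346 for Samhd1 and chr1:131279607-131279813 for Ikbke.
Ifnb1: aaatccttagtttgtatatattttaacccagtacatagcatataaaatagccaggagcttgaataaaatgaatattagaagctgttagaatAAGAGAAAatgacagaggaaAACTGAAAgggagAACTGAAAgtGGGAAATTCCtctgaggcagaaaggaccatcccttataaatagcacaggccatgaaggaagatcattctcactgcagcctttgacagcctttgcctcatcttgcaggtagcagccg
Samhd1: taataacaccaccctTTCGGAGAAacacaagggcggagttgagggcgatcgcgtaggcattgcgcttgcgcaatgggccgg
Ikbke: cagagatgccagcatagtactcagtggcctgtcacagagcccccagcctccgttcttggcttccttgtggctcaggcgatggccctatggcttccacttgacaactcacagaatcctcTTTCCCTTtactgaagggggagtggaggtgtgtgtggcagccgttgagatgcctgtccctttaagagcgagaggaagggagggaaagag

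In the Ifnb1 window, 3 matches to AANNGAAA began 159, 139 and 126 bases before the start, and the NF-kB match GGGAAATTCC began 116 bases before it. The Samhd1 window held TTCGGAGAA, which began 235 bases before the start and reads as the gamma-activated site on both strands. The Ikbke window held TTTCCCTT, a match to AANNGAAA on the opposite strand. A match is a stretch of letters, and binding was not measured here.

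Between 17037459 and 25174764 reads per microglial library and between 25953296 and 35779977 per hippocampal library were counted on genes. Values are given as normalized CPM, the counts divided by the scaled library size and put on the usual per-library scale of CPM. The kit named by the labels reads the 3′ ends of transcripts, and levels were not compared between genes. Reads of Cgas in Cgas-/- cells were counted first as a check of the labels. In Cgas-/- microglia, between 71 and 180 Cgas reads were counted per library, against 434 to 812 in Cgas+/+ microglia. Whether the 3′ end of the transcript lies inside the deleted part of Cgas was not given in the sources used here, so these reads say little about the protein. All 18 libraries followed their label in this respect. The 12 microglia markers (summed) lay between 9111 and 9426 CPM in Cgas+/+ libraries and between 5678 and 6138 CPM in Cgas-/- libraries. Summed markers of neurons did not exceed 2.46 CPM in any microglial library, those of fibroblasts and meninges 5.92 CPM, those of astrocytes 15.5 CPM, those of choroid plexus 10.8 CPM and those of T cells 0.665 CPM. Other lists were higher and moved with treatment and genotype. The 5 endothelial markers summed to between 106 and 125 CPM with vehicle, 142 and 177 CPM with tau and 380 and 391 CPM with HT-DNA in Cgas+/+ libraries, and to between 27.5 and 37.3 CPM in Cgas-/- libraries. The 8 oligodendrocyte markers summed to between 124 and 133 CPM with vehicle, 131 and 154 CPM with tau and 204 and 226 CPM with HT-DNA in Cgas+/+ libraries, and to between 70.9 and 82.7 CPM in Cgas-/- libraries. The part of these markers in the results was not tested. One library stood apart, Cgas-/- with HT-DNA replicate 1, which differed from replicates 2 and 3 of its group by a chi-square per degree of freedom of 22.4 and 28, against at most 10.7 within the other microglial groups. Between 79.6% and 81.5% of that came from CT010467.1, Gm23935 and Lars2, 3 genes named after their values had been seen.

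**Figure D1:**
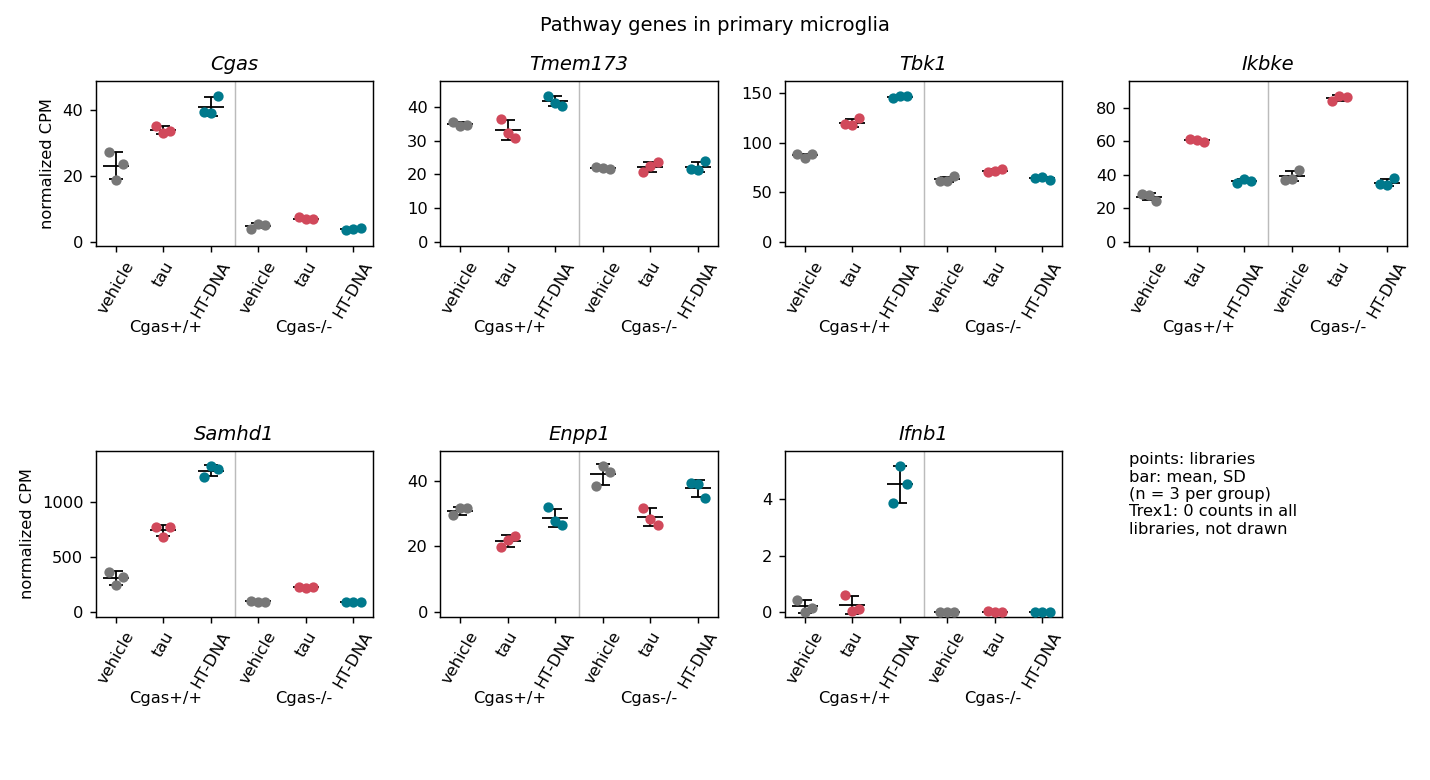
Normalized CPM (vertical axes) of 7 genes in 6 groups of primary microglia (horizontal axes), with each library as a point and the mean and SD of 3 libraries as bars. Samhd1 and Ifnb1 were highest with HT-DNA in Cgas+/+ cells, and Ikbke was highest with tau in Cgas-/- cells, at a mean of 85.7 CPM.

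The first question was whether tau fibrils or DNA changed the levels of the pathway's own genes in cells that have cGAS. In Cgas+/+ microglia, tau raised Cgas, Tbk1, Ikbke and Samhd1 and lowered Enpp1, and Tmem173 did not pass the threshold. Ifnb1 overlapped between tau and vehicle. HT-DNA raised 5 of the 6 tested genes other than Ifnb1, with the largest of these rises in Samhd1, and Ifnb1 was far higher with HT-DNA than with vehicle. Calls needed an adjusted p under 0.05. With tau, 4 genes rose and 1 fell, against 15.8% higher and 12.2% lower among all tested genes. With HT-DNA, 5 were higher and 0 lower, against 22.8% higher and 24.7% lower among all tested genes. The median log2 fold change of the 6 genes was 0.51 with tau and 0.59 with HT-DNA, against −0.01 and −0.03 over all tested genes. Asking also for a log2 fold change beyond 1 left Ikbke and Samhd1 with tau (3.41% of all tested genes passed) and Samhd1 with HT-DNA (8.08%). These shares and medians describe the genes and were not tested against chance. Tests were edgeR's quasi-likelihood test with Benjamini-Hochberg adjustment over all 13675 tested genes, and the same vehicle libraries stand in both comparisons.

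Among the sensor and adaptor genes, Cgas had 27.2, 18.8 and 23.5 CPM in the vehicle libraries, 35.3, 33 and 33.7 CPM with tau and 39.5, 39.2 and 44.3 CPM with HT-DNA. Each treated library lay above each vehicle library. Cgas rose 1.47-fold with tau (log2 fold change 0.56, SE 0.09, adjusted p = 2.97e-05) and 1.77-fold with HT-DNA (log2 fold change 0.83, SE 0.09, adjusted p = 2.05e-08). Tmem173, at chr18:35733679-35740554, had 35.4, 34.4 and 34.5 CPM with vehicle, 36.3, 32.3 and 30.6 CPM with tau and 43.3, 41.2 and 40.4 CPM with HT-DNA. The tau libraries overlapped the vehicle libraries, whereas the HT-DNA libraries lay above them. The rise of Tmem173 with HT-DNA was 1.2-fold (log2 fold change 0.26, SE 0.07, adjusted p = 0.00178), and with tau its log2 fold change was −0.07 with a 95% interval of −0.21 to 0.06.

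Both kinases rose with both treatments, to different degrees. Tbk1, which phosphorylates STING and the interferon regulatory factor IRF3, had 88.4, 85.2 and 88.5 CPM with vehicle, 119, 118 and 125 CPM with tau and 145, 147 and 148 CPM with HT-DNA. The 3 groups did not overlap, and Tbk1 rose 1.38-fold with tau (adjusted p = 6.82e-10) and 1.68-fold with HT-DNA (adjusted p = 1.01e-14). Ikbke, the gene of the related and inducible kinase IKKε, had 28.3, 28 and 24.5 CPM with vehicle, 61.3, 60.6 and 59.6 CPM with tau and 35, 37.3 and 36.5 CPM with HT-DNA. Here tau gave the higher level. Ikbke rose 2.24-fold with tau (log2 fold change 1.16, SE 0.06, adjusted p = 2.64e-14) and 1.34-fold with HT-DNA (log2 fold change 0.42, SE 0.07, adjusted p = 3.58e-06).

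Of the clearance genes, Samhd1 had 363, 244 and 323 CPM with vehicle, 771, 681 and 774 CPM with tau and 1229, 1327 and 1297 CPM with HT-DNA. The groups did not overlap. Samhd1 rose 2.39-fold with tau (log2 fold change 1.26, SE 0.08, adjusted p = 5.36e-13) and 4.14-fold with HT-DNA (log2 fold change 2.05, SE 0.08, adjusted p = 8.74e-18). Enpp1 had 29.4, 31.6 and 31.6 CPM with vehicle, 19.7, 22 and 23.2 CPM with tau and 31.9, 27.6 and 26.4 CPM with HT-DNA. Only the tau libraries lay below all vehicle libraries. Enpp1 was 1.43-fold lower with tau (log2 fold change −0.51, SE 0.08, adjusted p = 1.75e-05), and with HT-DNA its log2 fold change was −0.11 with a 95% interval of −0.27 to 0.06.

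Ifnb1, the product of the pathway, had 10, 0 and 3 counts in the Cgas+/+ vehicle libraries, 11, 1 and 2 counts with tau and 71, 96 and 83 counts with HT-DNA. HT-DNA stood apart from the other 2 groups, which overlapped. In CPM, the mean was 0.202 ± 0.224 with vehicle, 0.25 ± 0.304 with tau and 4.52 ± 0.657 with HT-DNA (SD, n = 3 each). Ifnb1 was 21.7-fold higher with HT-DNA, a log2 fold change of 4.44, given as a description without a test. This size depended on the few vehicle counts, since it was 5.84 without vehicle replicate 1 and 3.83 without vehicle replicate 2, which gave the range over all fits that left out 1 library. With tau, the log2 fold change was 0.24, also a description without a test, since neither a rise nor a fall of moderate size could be detected at this depth. Leaving out 1 library moved it to between −1.37 (without tau replicate 1) and 1.65 (without vehicle replicate 1).

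Set directly against each other in Cgas+/+ cells, tau and HT-DNA differed for all 6 tested genes other than Ifnb1. Ikbke was 1.67-fold higher with tau (adjusted p = 1.2e-10), and the other 5 genes were lower with tau than with HT-DNA, against 17.1% higher and 17.8% lower among all tested genes. The sizes of the 5 ranged from 1.21-fold for Cgas (log2 fold change −0.27, adjusted p = 0.0211) to 1.73-fold for Samhd1 (adjusted p = 3.14e-09). For Ifnb1 the log2 difference was −4.2, and it was −5.85 without tau replicate 1 and −3.68 without tau replicate 2. Of the 6 tested genes, the call of Cgas depended on single libraries. Its adjusted p was 0.137 without HT-DNA replicate 3, 0.0783 without tau replicate 2 and 0.0582 without tau replicate 3. Tau was given at 2 μg/ml and HT-DNA at 1 μg/ml, so these values stand side by side at different doses. With a log2 fold change beyond 1, 0 of the 6 passed (3.27% of all tested genes).

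The second question was whether levels and responses differed in cells without Cgas, starting with cells that received vehicle only. All 6 tested genes other than Ifnb1 differed between Cgas-/- and Cgas+/+ cells, 2 higher and 4 lower, against 24.7% higher and 27.3% lower among all tested genes. The 4 lower genes include Cgas, the deleted gene, which is to be set aside in this count. Cgas had 4.07, 5.47 and 5.23 CPM in Cgas-/- vehicle libraries and was 4.66-fold lower (adjusted p = 6.05e-15), which the genotype fixes. Tmem173 had 22.1, 21.9 and 21.7 CPM and was 1.59-fold lower (adjusted p = 4.42e-09). The adaptor thus stood below its Cgas+/+ level in every library.

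Tbk1 had 61.6, 61.9 and 66.2 CPM in Cgas-/- vehicle libraries and was 1.38-fold lower (adjusted p = 6.49e-10). Ikbke went the other way, with 37.2, 37.4 and 42.6 CPM, and was 1.45-fold higher (adjusted p = 6.05e-08). Samhd1 had 99.5, 96.6 and 96.7 CPM and was 3.18-fold lower (log2 fold change −1.67, SE 0.08, adjusted p = 7.47e-16). Enpp1 had 38.5, 44.5 and 42.6 CPM and was 1.36-fold higher (adjusted p = 2.6e-05). For these 4 genes and Tmem173 the libraries of the 2 genotypes did not overlap. This is a description, since the share of all tested genes that separated in this way was not counted. Ifnb1 had 0 counts in all 3 Cgas-/- vehicle libraries, where 0 counts allow up to 0.176 CPM in the shallowest microglial library (3 counts, counting error only). The 10, 0 and 3 counts of the Cgas+/+ libraries overlap 0, so no fold or test is given. Beyond a log2 fold change of 1, Samhd1 passed, as did Cgas, where the genotype fixes the fall (9.98% of all tested genes).

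These differences stood beside others between the genotypes. The 12 microglia markers were lower in Cgas-/- vehicle libraries (11 of 12 at an adjusted p under 0.05), and a reference list of 12 interferon response genes summed to between 1837 and 4454 CPM in Cgas+/+ and between 55.9 and 75.2 CPM in Cgas-/- vehicle libraries. Of that list, 12 of 12 were lower. Of the tested markers of other cell types, 3 of 3 endothelial (median log2 fold change −2.04), 3 of 3 fibroblast and meninges (−3.83), 3 of 5 oligodendrocyte (−0.89) and 2 of 6 astrocyte markers were lower, and 2 of 6 astrocyte markers were higher. The part of these in the differences of the 8 genes was not tested. In bulk libraries, a smaller share of cells of a type and less RNA per cell cannot be told apart. Cells of the 2 genotypes came from different pups. Whether their cultures were made side by side was not stated, and the part of culture preparation was not tested.

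In Cgas-/- microglia, tau changed the same 5 of the 6 tested genes, in the same directions, as it did in Cgas+/+ microglia. Of the 6 genes, 4 were higher and 1 lower, against 11.2% higher and 5.48% lower among all tested genes. Cgas had 7.45, 6.83 and 7.04 CPM with tau and rose 1.43-fold (log2 fold change 0.52, SE 0.14, adjusted p = 0.00748). Without vehicle replicate 1 its log2 fold change was 0.41 and its adjusted p 0.0709. Reads at this gene in knockout cells thus moved with tau as they did in Cgas+/+ cells.

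Tbk1 had 70.9, 71.3 and 73.9 CPM with tau in Cgas-/- cells and rose 1.14-fold (log2 fold change 0.19, SE 0.04, adjusted p = 0.00238). Ikbke had 83.6, 87 and 86.3 CPM and rose 2.19-fold (log2 fold change 1.13, SE 0.06, adjusted p = 5.68e-15). Samhd1 had 233, 222 and 225 CPM and rose 2.32-fold (log2 fold change 1.22, SE 0.08, adjusted p = 1.9e-12). For these 3 genes every tau library lay above every vehicle library, and the share of all tested genes that did so was not counted. Enpp1 had 31.8, 28.4 and 26.5 CPM, below every vehicle library, and was 1.45-fold lower (adjusted p = 4.19e-06). Tmem173 had 20.6, 22.4 and 23.6 CPM, with a log2 fold change of 0.02 and a 95% interval of −0.13 to 0.17. Ifnb1 had 1, 0 and 0 counts. Beyond a log2 fold change of 1, Ikbke and Samhd1 passed, as 2.73% of all tested genes did.

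The interaction of tau with Cgas genotype, the log2 response in Cgas-/- minus that in Cgas+/+ cells, passed the threshold for Tbk1 and for none of the other 5 tested genes. Of the 6 genes, 0 were higher and 1 was lower, against 3.61% higher and 3.31% lower among all tested genes. For Tbk1 it was −0.28 (SE 0.06, adjusted p = 0.00437), so that the rise with tau was smaller without Cgas, and no member passed beyond a log2 difference of 1 (0.965% of all tested genes). For Samhd1 the difference between the responses was −0.04 with a 95% interval of −0.27 to 0.19, and for Ikbke it was −0.03 with an interval of −0.21 to 0.14. For Cgas the difference was −0.04 (interval −0.38 to 0.31), for Enpp1 −0.03 (interval −0.26 to 0.21) and for Tmem173 0.1 (interval −0.11 to 0.3). The folds were thus close while the levels were not, since Samhd1 with tau reached a mean of 227 ± 5.35 CPM in Cgas-/- cells and 742 ± 52.6 CPM in Cgas+/+ cells (SD, n = 3). For Ikbke the order was the opposite, with 85.7 ± 1.8 CPM in Cgas-/- and 60.5 ± 0.84 CPM in Cgas+/+ cells.

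With HT-DNA, by contrast, none of the 6 tested genes passed the threshold in Cgas-/- cells by edgeR's quasi-likelihood test with adjustment over all tested genes. Among all tested genes 1.04% were higher and 0.278% lower. At an unadjusted p under 0.05 there were 2 of the 6, Ikbke and Cgas, both lower, where 12.3% of all tested genes passed in either direction. The Wald test of DESeq2 called 0 of the 6, where it called 241 of the 10133 genes it tested. Beyond a log2 fold change of 1, 0 of the 6 passed (0.0219% of all tested genes). Without Cgas-/- HT-DNA replicate 1, the library that stood apart, 0 of the 6 passed as well, and 117 genes in all were called where 180 were called with it. Samhd1 had 93.5, 94.3 and 96 CPM with HT-DNA, with a log2 fold change of −0.04 and a 95% interval of −0.21 to 0.13. Tbk1 had 64.8, 65.8 and 62.7 CPM, with a log2 fold change of 0.03 and an interval of −0.07 to 0.12. Ifnb1 had 0 counts in all 3 libraries, against 71 to 96 counts in the Cgas+/+ libraries with HT-DNA. The remaining genes lay at 3.76 to 4.18 CPM (Cgas), 21.2 to 23.9 CPM (Tmem173), 33.9 to 37.8 CPM (Ikbke) and 34.7 to 39.4 CPM (Enpp1).

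**Figure D2:**
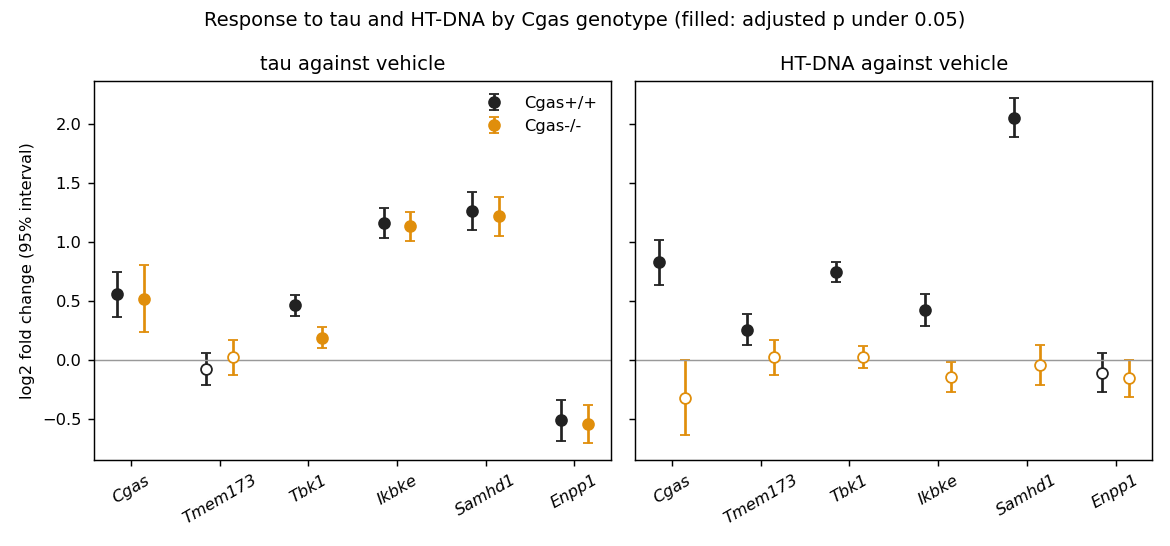
Log2 fold change against vehicle with 95% intervals (vertical axes) for 6 genes (horizontal axes), with tau at left and HT-DNA at right, in Cgas+/+ (dark) and Cgas-/- (orange) microglia of 3 libraries per group. The tau responses of the genotypes lie close together except for Tbk1, whereas the HT-DNA responses of Cgas, Tbk1, Ikbke and Samhd1 differ between genotypes.

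The interaction of HT-DNA with Cgas genotype was tested in the same way. It passed for Samhd1 (log2 difference −2.09, SE 0.11, adjusted p = 9.37e-14), Cgas (−1.15, SE 0.18, adjusted p = 9.58e-06), Tbk1 (−0.72, SE 0.06, adjusted p = 2.21e-10) and Ikbke (−0.57, SE 0.09, adjusted p = 9.61e-06). These 4 of 6 were all lower, with and without Cgas-/- HT-DNA replicate 1, against 17.4% higher and 16.6% lower among all tested genes. The 4 include Cgas, whose Cgas-/- values are reads left at the deleted gene, at 71 to 119 counts per library with vehicle or HT-DNA. For Tmem173 the difference was −0.23 with a 95% interval of −0.43 to −0.03 (adjusted p = 0.0659), and it passed with RLE scaling (adjusted p = 0.0329), when the fit held the compared groups alone (0.0113) and without Cgas-/- HT-DNA replicate 3 (0.0314). For Enpp1 it was −0.05 with an interval of −0.28 to 0.18. Beyond a log2 difference of 1, Samhd1 and Cgas passed (6.27% of all tested genes). For Ifnb1 the interaction could not be fitted, since every Cgas-/- library with vehicle or HT-DNA had 0 counts.

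Ordered by mean level, Cgas, Tbk1 and Samhd1 ran through the 6 groups alike: Cgas+/+ with HT-DNA, tau and vehicle, then Cgas-/- with tau, followed by the 2 other Cgas-/- groups. For Cgas and Tbk1 the last 2 groups overlapped, and for Samhd1 no neighbouring groups overlapped. Ikbke ran in another order, with both tau groups first, then Cgas-/- vehicle, Cgas+/+ HT-DNA and Cgas-/- HT-DNA, which overlapped in turn, and Cgas+/+ vehicle last. Enpp1 was highest in Cgas-/- vehicle cells, at 41.9 ± 3.07 CPM, and lowest in Cgas+/+ tau cells, at 21.6 ± 1.76 CPM (SD, n = 3).

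Across the 18 microglial libraries, the genes whose log2 CPM followed each member most closely were named as a description, from 11602 genes with a mean count of at least 20. The libraries share their groups, so these values mostly follow the 6 group means. Samhd1 ran most closely with Tlr3, the gene of a receptor for double-stranded RNA (Pearson r = 0.999), Fnbp4 (0.998) and Dcp2 (0.998). Tbk1 ran with Fbrsl1 (0.995), Slc12a9 (0.995) and Atl3 (0.994). Cgas ran with Blnk (0.993), Ehmt2 (0.992) and Ms4a6b (0.991), and Tmem173 with Plekhm1 (0.991), Itgav (0.986) and Nckap1l (0.986). Ikbke ran with Mmp14 (0.98), Mapkapk2 (0.963), a kinase of stress signalling, and Prdx5 (0.957). Enpp1 ran with Snx5 (0.932), Mctp1 (0.926) and Tspan14 (0.922). Ifnb1, at or near 0 in 5 of the 6 groups, ran with Utp3 (0.96), Scarb2 (0.959) and Camk2d (0.958).

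The other genes around the pathway were counted from lists that had been set with earlier results of these data known. The shares of all tested genes given above, 15.8% higher and 12.2% lower with tau and 22.8% and 24.7% with HT-DNA in Cgas+/+ cells, and 11.2% and 5.48% with tau in Cgas-/- cells, are the background of each of these counts. Of 28 tested cofactors and regulators of STING and TBK1, tau raised 10 and lowered 4 in Cgas+/+ cells and raised 9 and lowered 1 in Cgas-/- cells. HT-DNA raised 13 and lowered 8 of them in Cgas+/+ cells and called 0 of 28 in Cgas-/- cells, in the comparison above with few calls of any gene. By adjusted p, Nlrc5 and Irf7 led this list with both agents in Cgas+/+ cells, followed by Tank with tau and Azi2 with HT-DNA. Tank, an adaptor of TBK1, rose 1.76-fold with tau and 1.99-fold with HT-DNA in Cgas+/+ cells (adjusted p = 6.02e-11 and 3.1e-13). Irf7, an interferon regulatory factor, had 173 ± 40.8 CPM with vehicle, 512 ± 51.5 CPM with tau and 862 ± 73.3 CPM with HT-DNA in Cgas+/+ cells. In Cgas-/- cells it had 4.31 ± 0.594, 123 ± 11.2 and 6.26 ± 2.05 CPM with vehicle, tau and HT-DNA (SD, n = 3 each). Its tau response was larger on the log2 scale in Cgas-/- cells (interaction 3.26, adjusted p = 4.2e-11), from a lower start and to a lower level.

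Of 16 tested cGAS cofactors and regulators, tau raised 2 and lowered 5 and HT-DNA raised 1 and lowered 8 in Cgas+/+ cells. Trim14, which stabilises cGAS, rose 1.57-fold with tau and 1.76-fold with HT-DNA (adjusted p = 9.71e-10 and 4.18e-12) and was the only one that HT-DNA raised. Next by adjusted p were Akt1 and Hmgb1 with tau, and Ttll4 and Parp1, both lowered, with HT-DNA. Of 19 tested nucleases and other nucleic acid clearance genes, tau raised 2 and lowered 4 and HT-DNA raised 3 and lowered 6. Adar, which edits double-stranded RNA, rose 1.53-fold and 1.76-fold (adjusted p = 3.31e-10 and 3.6e-13), while Dnase2a, the gene of a lysosomal DNase, had log2 fold changes of −0.27 and −0.31 (adjusted p = 2.67e-06 and 1.63e-07). In Cgas-/- cells, tau raised Adar alone of the 19 and lowered Dnase2a alone, and HT-DNA called 0 of 19. Of 10 tested genes of cGAMP transport and hydrolysis, tau raised 3 and lowered 3 and HT-DNA raised 1 and lowered 4 in Cgas+/+ cells, while in Cgas-/- cells tau raised 4 and lowered 1 and HT-DNA raised 1 and lowered 0. Slc46a1, a folate transporter, had log2 fold changes of −0.35 with tau and −0.57 with HT-DNA in Cgas+/+ cells (adjusted p = 0.000168 and 8.74e-08). Abcc1, an exporter of cGAMP, rose 1.75-fold with tau and had a log2 fold change of −0.49 with HT-DNA in Cgas+/+ cells (adjusted p = 6.5e-14 and 6.05e-10). In Cgas-/- cells Abcc1 rose with both, by 2.11-fold with tau and 1.16-fold with HT-DNA (adjusted p = 8.44e-17 and 0.0118).

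Besides Ifnb1, 19 other type I and III interferon genes were in the microglial table and 0 of 19 passed the filter on low counts. With HT-DNA in Cgas+/+ cells, 9 of them had at least 1 count, and together they summed to between 0.489 and 0.754 CPM. In no other group did their sum exceed 0.162 CPM. The 12 interferon response genes summed to between 10398 and 13410 CPM with tau and between 22694 and 25019 CPM with HT-DNA in Cgas+/+ cells. In Cgas-/- cells they summed to between 1694 and 1853 CPM with tau and between 76.7 and 120 CPM with HT-DNA. With tau, 12 of 12 rose in both genotypes, in libraries in which Ifnb1 had between 0 and 11 counts. With HT-DNA, 12 of 12 rose in Cgas+/+ cells and 0 of 12 passed in Cgas-/- cells.

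Trex1 could not be measured in these files. It had 0 counts in all 31 libraries, including those with HT-DNA. Its 1147 exon bases all lie within exons of Atrip, a gene of the DNA damage response on the same strand, so reads from the one cannot be told from reads of the other by position. Atrip had between 139 and 288 counts per microglial library and between 2 and 19 per hippocampal library. How reads in shared exons were counted was not given in the sources used here, and no level or change of Trex1 is drawn from the 0.

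**Figure D3:**
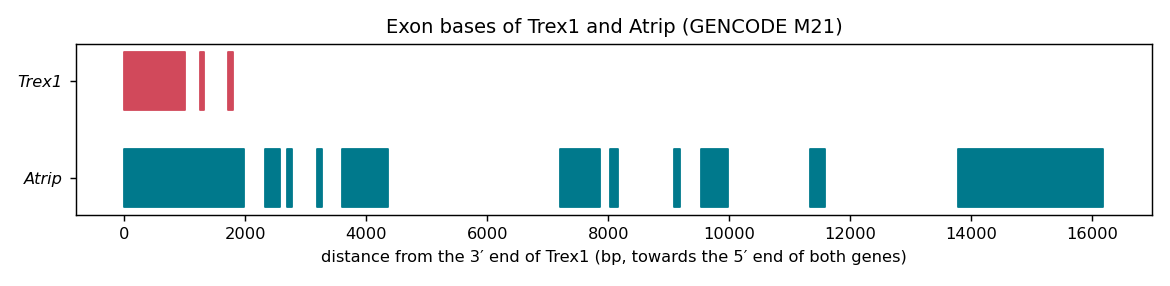
Exon bases of Trex1 and Atrip (rows) along the distance from the 3′ end of Trex1 in bp (horizontal axis), from GENCODE M21. All 1147 exon bases of Trex1 fall inside exon bases of Atrip, all of them in its exon block nearest the 3′ end.

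The third question was whether the same genes changed in the hippocampus of mice with tau pathology. None of the 6 tested genes passed the threshold between P301S and Ntg mice by edgeR's quasi-likelihood test with Benjamini-Hochberg adjustment, against 1.39% higher and 0.122% lower among all tested genes. At an unadjusted p under 0.05 there were 3 of 6, Tmem173, Ikbke and Samhd1, all higher, where 15.9% of all tested genes passed in either direction. The Wald test of DESeq2 called 1, Tmem173, where it called 974 of the 20370 genes it tested. Beyond a log2 fold change of 0.5, 0 of the 6 passed (1.36% of all tested genes). The median log2 fold change of the 6 genes was 0.27 against 0.00132 over all tested genes, a description without a test. In a whole hippocampus these genes are read from all cell types together.

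Tmem173 ranged from 3.94 to 5.62 CPM in Ntg mice (median 4.5) and from 4.29 to 10.2 CPM in P301S mice. In detail, the 6 P301S mice had 8.89, 8.64, 4.94, 4.29, 10.2 and 6.19 CPM, so that 4 of 6 lay above every Ntg mouse and the other 2 lay within the Ntg range. Tmem173 was 1.53-fold higher in P301S (log2 fold change 0.61, SE 0.19, adjusted p = 0.123). Its adjusted p was 0.0489 by the Wald test of DESeq2, 0.0484 without mouse 43, 0.0334 without mouse 63 and between 0.0334 and 0.293 over all fits that left out 1 mouse.

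Ikbke ranged from 0.398 to 1.19 CPM in Ntg mice (median 0.803), and the P301S mice had 2.48, 2.06, 0.841, 1.25, 1.52 and 1.32 CPM. Of the P301S mice, 5 of 6 lay above every Ntg mouse. Ikbke was 1.78-fold higher (log2 fold change 0.83, SE 0.28, adjusted p = 0.155), and these levels rest on 11 to 75 counts per mouse.

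Samhd1 ranged from 14.5 to 17.1 CPM in Ntg mice (median 15.4) and had 19.1, 16.5, 14.5, 18.3, 19.2 and 19 CPM in P301S mice, of which 4 of 6 lay above every Ntg mouse. It was 1.14-fold higher (log2 fold change 0.19, SE 0.08, adjusted p = 0.227). Cgas ranged from 0.727 to 1.37 CPM in Ntg mice (median 1.12), with 22 to 46 counts per mouse, and had 1.65, 1.44, 0.947, 1.25, 1.52 and 1.52 CPM in P301S mice. Its groups overlapped, with 4 of 6 P301S mice above every Ntg mouse and a log2 fold change of 0.35 (SE 0.18, adjusted p = 0.378). Tbk1 ranged from 46.9 to 54.7 CPM in Ntg and from 42 to 50.1 CPM in P301S mice, with a log2 fold change of −0.09 and a 95% interval of −0.22 to 0.05. Enpp1 ranged from 2.39 to 8.16 CPM in Ntg and from 3.57 to 6.23 CPM in P301S mice, with a log2 fold change of 0.14 and an interval of −0.38 to 0.66.

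Ifnb1 was too low for the fit across genes, with 1 count in 1 Ntg mouse, 1 count in 1 P301S mouse and 0 in the other 11 mice. In an exact two-sided permutation test of its CPM over all 1716 splits of the mice, p was 0.731. With so few counts this test could not go below 0.192 and so could not pass. A library with 0 counts allows up to 0.116 CPM in the shallowest hippocampal library (3 counts, counting error only). Of the 19 other interferon genes, 0 passed the filter in hippocampus.

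**Figure D4:**
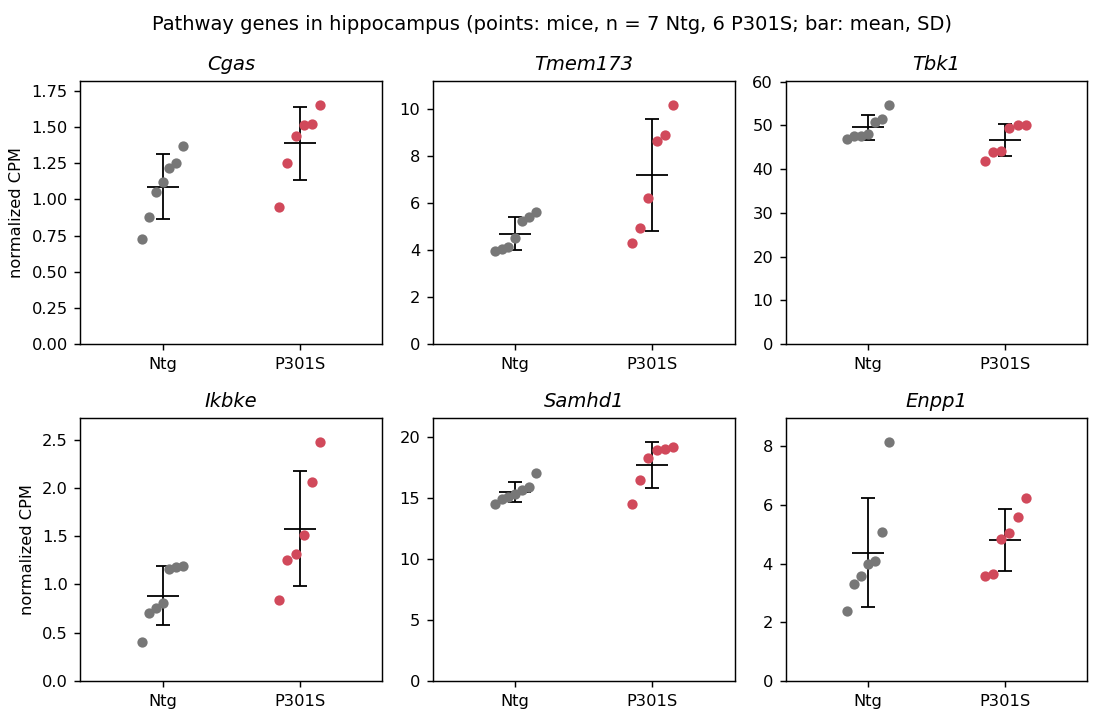
Normalized CPM (vertical axes) of 6 genes in the hippocampi of 7 Ntg and 6 P301S mice (horizontal axes), with each mouse as a point and the mean and SD as bars. For Tmem173 4 of 6 and for Ikbke 5 of 6 P301S mice lie above all Ntg mice, and the groups overlap for all 6 genes.

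The microglia markers moved with Tmem173 in the same mice. The 12 markers summed to between 479 and 595 CPM in Ntg mice and to 1675, 1527, 499, 572, 1690 and 922 CPM in P301S mice, in the order of mice used above. The 2 P301S mice with Tmem173 inside the Ntg range, mice 43 and 63, had the lowest sums, 499 and 572 CPM, which are also inside the Ntg range. With the mean of the microglia markers as a covariate, an alternative chosen after the data had been seen, the log2 fold change of Tmem173 between genotypes was −0.00234 (adjusted p = 1), while with homeostatic microglia markers as the covariate it was 0.37 (adjusted p = 0.258). With the 12 markers as the covariate, the log2 fold changes of Ikbke, Samhd1 and Cgas were 0.22, 0.08 and 0.06. No marker of the list was at 0 in either group. Of the 12 markers, 4 were themselves higher in P301S mice and 0 lower, while 0 of 7 homeostatic markers passed. The covariate of 12 markers thus differed between genotypes itself, and the part of microglia in these levels was not tested. Sums of neuron markers overlapped between the groups, at 7065 to 9464 CPM in Ntg and 6225 to 8907 CPM in P301S mice. Those of astrocyte markers overlapped as well, at 4606 to 5434 CPM in Ntg and 4880 to 8608 CPM in P301S mice. Of 7 tested astrocyte markers, 1 was higher in P301S mice, Gfap, and 0 were lower.

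**Figure D5:**
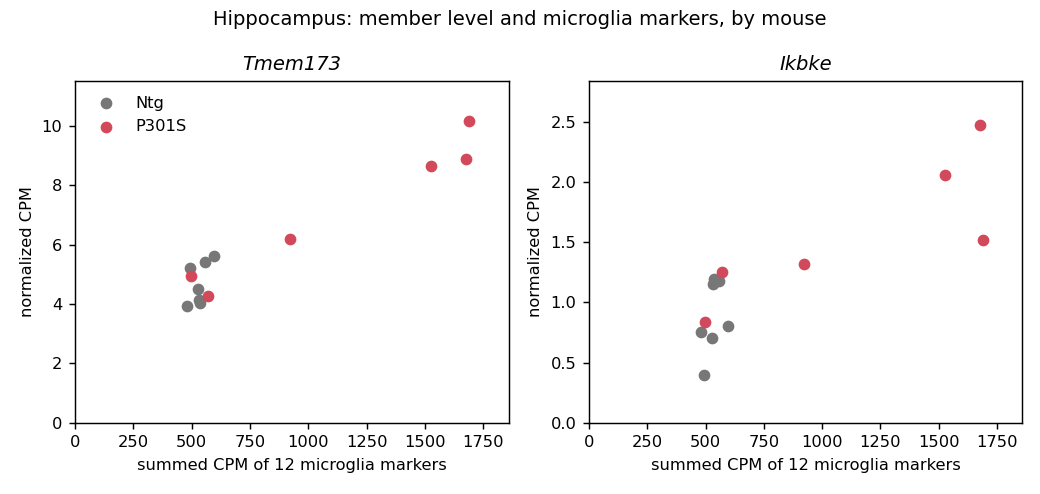
Normalized CPM of Tmem173 (left) and Ikbke (right) on the vertical axes against the summed CPM of 12 microglia markers on the horizontal axes, with 1 point per mouse (7 Ntg, grey, and 6 P301S, red). The 3 P301S mice with marker sums above 1500 CPM had the highest levels of both genes.

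Across the 13 hippocampi, as a description over mice of both groups, Tmem173 ran most closely with Hexa, the gene of a lysosomal hexosaminidase subunit (Pearson r = 0.965), Apbb1ip (0.963) and Slc7a7 (0.962). Ikbke ran with Baz1a (0.927), Mapkapk3 (0.92) and Pmm2 (0.914), and Samhd1 with Gm10461 (0.939), Bmf (0.93) and Parp12 (0.919). Cgas ran with Arhgap11a (0.87), Mlph (0.838) and Lcp2 (0.822). Tbk1 ran with Gtf3c3 (0.882), Mdga2 (0.874) and Stk33 (0.873), and Enpp1 with Cdh1 (0.894), Gm33594 (0.894) and Tnfrsf11b (0.869).

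Of the other pathway lists in hippocampus, 3 of 27 tested cofactors and regulators of STING and TBK1 were higher in P301S mice and 0 were lower, where 1.39% and 0.122% of all tested genes were, shares that also stand beside the counts that follow. They were Irf7, 5.34-fold, Usp18, 6.52-fold, and Nlrc5, 4.51-fold (adjusted p = 0.0303 for each). Irf7 ranged from 1.14 to 2.35 CPM in Ntg and from 1.82 to 19.3 CPM in P301S mice, so the groups overlapped. Of 17 nucleases and clearance genes, Pld4, the gene of a lysosomal exonuclease, was 2.32-fold higher (adjusted p = 0.0386). None of 17 cGAS cofactors and 11 genes of cGAMP transport and hydrolysis passed. Of the 12 interferon response genes 9 were tested and 5 were higher, and their sum ran from 71.1 to 82.8 CPM in Ntg and from 76.5 to 262 CPM in P301S mice.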

How the data were processed

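RNA was sequenced from hippocampi of 7 Ntg and 6 P301S mice and from 18 libraries of primary microglia (6 groups of 3). The authors deposited raw read counts per gene, with no normalization, in 1 table per experiment. Per the labels, libraries were made with a kit that reads transcript 3′ ends, the build was GRCm38 and edgeR and limma were used. For hippocampus the study's methods name another RNA kit, and they give another age for RNA-seq mice. The aligner, counting tool and annotation are not given in the sources used here.

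Counts were tested with edgeR 4.0.16 in R 4.3.3 (filterByExpr, TMM scaling, quasi-likelihood F test), with all 6 groups in 1 fit for microglia. P-values were adjusted by the Benjamini-Hochberg method over 13675 genes in microglia and 16453 in hippocampus, and calls needed an adjusted p under 0.05. Standard errors were derived from the F statistic, and intervals are 95% intervals. A member removed by the filter was tested in hippocampus by an exact permutation test; in microglia 3 against 3 libraries cannot go below 0.1. Total counts were 17037459 to 25174764 per microglial and 25953296 to 35779977 per hippocampal library. Intervals and limits cover counting error and the spread between libraries only. Replicates differed by more than sampling noise, with a chi-square per degree of freedom of 2.32 to 10.7 within 5 microglial groups, 4.16 to 28 within Cgas-/- HT-DNA and 17.2 to 125 within hippocampal groups. Ifnb1, which passed the microglial filter only through Cgas+/+ HT-DNA, was left out of counts of members, a choice made after the data had been seen.

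The members and gene lists were chosen with earlier results of these data known. Named genes were the 8 members, for each list up to 3 genes with the smallest adjusted p per comparison, and for each member the 3 genes with the highest correlation of log2 CPM. The alternatives were DESeq2 1.42.0, RLE scaling, no filter, a minimum fold change, only the compared groups, a replicate block, sex or homeostatic microglia markers as covariates and leaving out each library. The covariate of all 12 microglia markers was added after the data had been seen. Scripts were tested on simulated data, where DESeq2 made more false calls in the hippocampal design than its threshold allows. The simulation gave all genes removed by edgeR's filter the same spread, and whether the excess holds for the real data was not tested. Gene positions came from GENCODE M21 and promoter sequences from RefSeq.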

Additional observations from a re-analysis of the deposited data

Results flagged for a closer look

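Responses that differed between genotypes, by the test of the interaction in edgeR's quasi-likelihood fit with adjustment over all tested genes, were those of Tbk1 to tau (log2 difference −0.28, adjusted p = 0.00437) and of Cgas (−1.15, adjusted p = 9.58e-06), Tbk1 (−0.72, adjusted p = 2.21e-10), Ikbke (−0.57, adjusted p = 9.61e-06) and Samhd1 (−2.09, adjusted p = 9.37e-14) to HT-DNA, each the Cgas-/- response minus the Cgas+/+ response with 3 libraries per group. Every treated Cgas+/+ library lay above every vehicle library for these genes, and the share of all tested genes that did so was not counted.

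In hippocampus, 14 groups of a gene in 1 genotype were checked for a mouse far from the rest, and 2 were found. Both were Ifnb1, with 0.0362 CPM in 1 Ntg mouse and 0.0379 CPM in 1 P301S mouse, each from 1 count where the other mice had 0. A group with 1 count among zeros is always found in this way, whereas chance gives about 1 in 20 groups of continuous values.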

How the results depend on the processing

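Calls of the 6 genes tested in microglia other than Ifnb1 held with DESeq2, RLE scaling, no filter and the compared groups alone, except that Tmem173 passed in the HT-DNA interaction with RLE scaling and with the compared groups alone. A minimum log2 fold change of 1 left 2 genes called with tau and 1 with HT-DNA in Cgas+/+ cells, 2 with tau in Cgas-/- cells, 2 between genotypes with vehicle, 0 and 2 in the tau and HT-DNA interactions and 0 between tau and HT-DNA. With the replicate number as a replicate block, 5, 5, 5, 0, 6, 1, 4 and 6 genes were called in the 8 microglial comparisons, and each of the 6 genes kept its call in each of them. Over all tested genes, libraries of the same number did not deviate together (r from −0.085 to 0.0823, 5 of 18 libraries closest to their own number). The number was therefore not treated as a pairing. This check took all groups together and did not look at single genes.

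In hippocampus, 1 gene instead of 0 was called by DESeq2 (974 of 20370 genes in all), and between 0 and 1 with each mouse left out. It was Tmem173, whose log2 fold change was −0.00234 with the 12 microglia markers as a covariate, chosen after the data had been seen. Of these 12 markers, 4 were themselves higher in P301S mice. Values that changed sign when 1 library was left out passed the threshold in none of those fits. With tau against vehicle they were Ifnb1 in Cgas+/+ cells (−1.37 to 1.65) and Tmem173 in Cgas-/- cells (−0.0252 to 0.0699), and with HT-DNA Tmem173 in Cgas-/- cells (−0.0332 to 0.0609). In the tau interaction they were Cgas (−0.172 to 0.0997), Ikbke (−0.0695 to 0.0375), Samhd1 (−0.173 to 0.104) and Enpp1 (−0.115 to 0.0322), and in the HT-DNA interaction Enpp1 (−0.132 to 0.0343). The value of Ifnb1 with tau in Cgas+/+ cells, a description without a test, changed sign as well (−1.37 to 1.65). The cause of these changes was not tested. Depth limits Ifnb1, at 0 to 11 counts outside Cgas+/+ cells with HT-DNA, and Cgas and Ikbke in hippocampus, at 11 to 75 counts.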
